A study of Mus musculus with 4 samples.

Results

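The genes described here are 5 genes of glucose handling, insulin secretion and maturity in pancreatic beta cells: Slc2a2, G6pc2, Trpm5, Slc30a8 and Ucn3. They were taken as all array probes whose gene name in the scanner files is one of these symbols. This gave 5 probes, 1 for each gene, of 55681 non-control probes. Those of the 55681 whose name is in a RefSeq gene table cover 22328 genes. Islets of C57BL/6 mice aged 24 weeks were profiled on 4 one-colour arrays, 1 array for each group. Wild-type males form the male WT group, and transgenic males, diabetic per the labels, the male Tg group. A further group of transgenic males carried an implant of E2, commonly short for estradiol, for 6 weeks (male Tg E2), and the last group was of transgenic females (female Tg). The labels used here name neither the transgene nor its promoter, nor the number of mice behind an array, and there is no group of wild-type females, so a difference between the female Tg array and a male array joins sex with whatever else differs between those mice.

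Beta cells measure blood glucose by metabolising it. Glucose enters the rodent beta cell mainly through GLUT2, the product of Slc2a2, is phosphorylated, and can be dephosphorylated again by the islet glucose-6-phosphatase that G6pc2 encodes. The ATP that follows closes potassium channels, the membrane depolarises, with TRPM5 among the cation channels that carry the depolarising current, and calcium entry releases insulin granules, into which the zinc transporter ZnT8, encoded by Slc30a8, has loaded zinc. Ucn3 encodes urocortin 3, a peptide of the corticotropin-releasing factor family that mouse beta cells start to make as they mature, secrete together with insulin, and through which they act on receptors of neighbouring delta cells.

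Each gene was read by a single 60-base probe, spotted once on each array. The opening 30 bases of each probe are given 5′ to 3′, as the scanner files hold them, because each value below is the brightness of that oligonucleotide.
Slc2a2: tagtttctttgatgtattttgcaaggttaa
G6pc2: gcatccccatgttttacttctaagagtcaa
Trpm5: tatgacggatacactggctccaggaggcac
Slc30a8: tgattctgccaccatactcaatgagatctt
Ucn3: tctcagtacatacacactcaagcgcagtat
On build mm9 the files place these probes at chr3:28627016-28627075 (Slc2a2), chr2:69065947-69066006 (G6pc2), chr7:150257434-150257456 (Trpm5, of which the listed span covers 23 of the 60 bases), chr15:52167214-52167273 (Slc30a8) and chr13:3940178-3940237 (Ucn3). Exon and untranslated region were not assigned. GC content of the whole probe was 35.0% for Slc2a2, G6pc2 and Slc30a8, 45.0% for Ucn3 and 55.0% for Trpm5.

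All 5 genes were expressed in every group: each probe was called well above background by the scanner software on all 4 arrays, with no spot saturated and no outlier flag on a member. Between 49.9% (female Tg) and 54.8% (male WT) of non-control spots passed the same call, as did 13890 genes on all 4 arrays. Levels are given as log2 intensity minus the array's own 75th percentile, so that 0 is the level of that percentile. With 1 array in a group there is no test of any difference below, no replicate check and no p-value; each difference is one between single arrays. The scanner software's error model gave each level of a member an error of 0.14 log2 (0.15 for Trpm5 on the male Tg array), and the 95% intervals below are 1.96 errors of a difference either way. They cover the measurement of a spot and not the spread between mice. Probes that the array design spots 10 times differed among their own spots by less, with a median SD between 0.0630 and 0.0717 log2.

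The tissue label was checked against marker genes. All 10 beta cell markers were well above background on the 4 arrays, and Ins1, an insulin gene, gave an intensity of 363928 for male WT, 320051 for male Tg, 330127 for male Tg E2 and 281945 for female Tg. Markers of other cells differed between the arrays, and most of all those of the enzyme-secreting acinar cells. The summed level of 12 acinar markers, all well above background, was 822 times the array's 75th percentile on the male WT array, 11103 on male Tg, 6812 on male Tg E2 and 908 on female Tg. Stellate and matrix markers summed to 8.71, 106, 90.2 and 46.2 in that order, lymphocyte markers to 9.5, 43.7, 14 and 42.3, and red cell markers, 5 of 6 of them well above background on each array, to 113, 537, 51.4 and 156. Beta cell markers summed to 2280, 3295, 2437 and 2298, mostly from the hormone genes Ins1, Ins2 and Iapp, and the other 7 to 142, 50.6, 84.4 and 90.2. The 7 alpha cell markers other than Gcg summed to 209, 354, 341 and 348, and the 3 delta cell markers other than Sst to 44.7, 122, 103 and 147. In the other lists the sums ranged from 783 to 1326 for 8 alpha cell markers, 490 to 1183 for 4 delta cell markers, 9.49 to 21.2 for 7 ductal markers, 39.0 to 52.9 for 6 endothelial markers and 47.6 to 58.6 for 6 macrophage markers, of which only ductal markers (4 to 7 of them) were not all above background on each array.

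**Figure D1:**
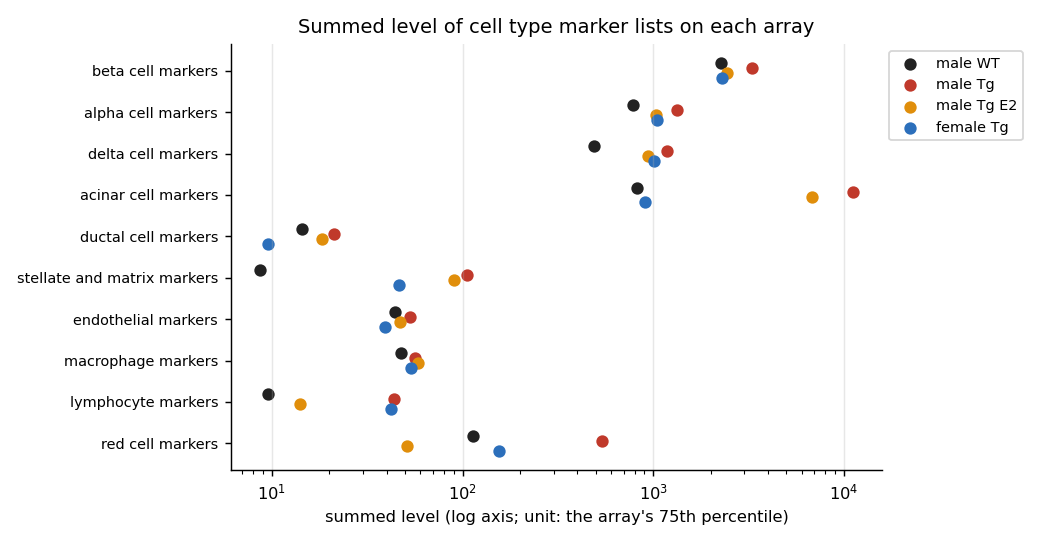
Summed level of each cell type marker list (horizontal log axis, in units of the array's 75th percentile) on the 4 arrays, 1 point per array. Acinar markers lie at 11103 on male Tg and 6812 on male Tg E2 but at 822 on male WT and 908 on female Tg, whereas the beta cell sum, mostly insulin and Iapp signal, lies between 2280 and 3295; without these hormone genes it was 142 on male WT and 50.6 on male Tg.

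The levels of the 5 genes followed nearly one order over the arrays: highest on male WT, lowest on male Tg, and between these on the other arrays. Slc2a2, the glucose transporter gene, had processed intensities of 16193 on the male WT array, 1899 on male Tg, 3196 on male Tg E2 and 3831 on female Tg, which are scaled log2 levels of 5.47, 3.23, 3.42 and 3.87. The 3 transgenic arrays lay close together and well below male WT. The step from male Tg to male Tg E2 (0.19, interval -0.21 to 0.59) was within the measurement error, and that from male Tg E2 to female Tg (0.46, 0.06 to 0.86) was just beyond it.

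G6pc2, whose product returns glucose-6-phosphate to glucose, gave 42404, 3675, 27342 and 13265 in the same order of arrays, or log2 levels of 6.86, 4.18, 6.51 and 5.67. Here the male Tg E2 array stood above the female Tg array, by 0.85 (0.45 to 1.25), which it did for none of the other 4 genes. The male WT level exceeded that of male Tg E2 by 0.35, with an interval of -0.05 to 0.75 that includes 0. After quantile normalization, male Tg E2 over male WT was at -0.51, with no interval computed. The female Tg level was 1.48 above male Tg.

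The channel gene Trpm5 gave intensities of 3815 on male WT, 108 on male Tg, 789 on male Tg E2 and 1495 on female Tg. Its log2 levels were 3.39, -0.90, 1.40 and 2.52. Every step in this order was beyond the measurement error: male WT over female Tg by 0.87, female Tg over male Tg E2 by 1.12, and male Tg E2 over male Tg by 2.30.

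Slc30a8, the granule zinc transporter gene, gave intensities of 62030, 10274, 28839 and 29875 and log2 levels of 7.41, 5.67, 6.59 and 6.84. Its span of 1.74 between the highest and the lowest array was the smallest of the 5 genes. The male Tg E2 and female Tg arrays could not be separated by measurement error (0.25, -0.15 to 0.65), while male WT stood 0.57 above female Tg and male Tg E2 stood 0.92 above male Tg.

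Ucn3, the secreted maturity peptide, gave 30896, 817, 4567 and 9534, or log2 levels of 6.40, 2.01, 3.93 and 5.19. It had the widest span, and each step down from male WT to female Tg (1.21), to male Tg E2 (1.26) and to male Tg (1.92) was beyond the measurement error.

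**Figure D2:**
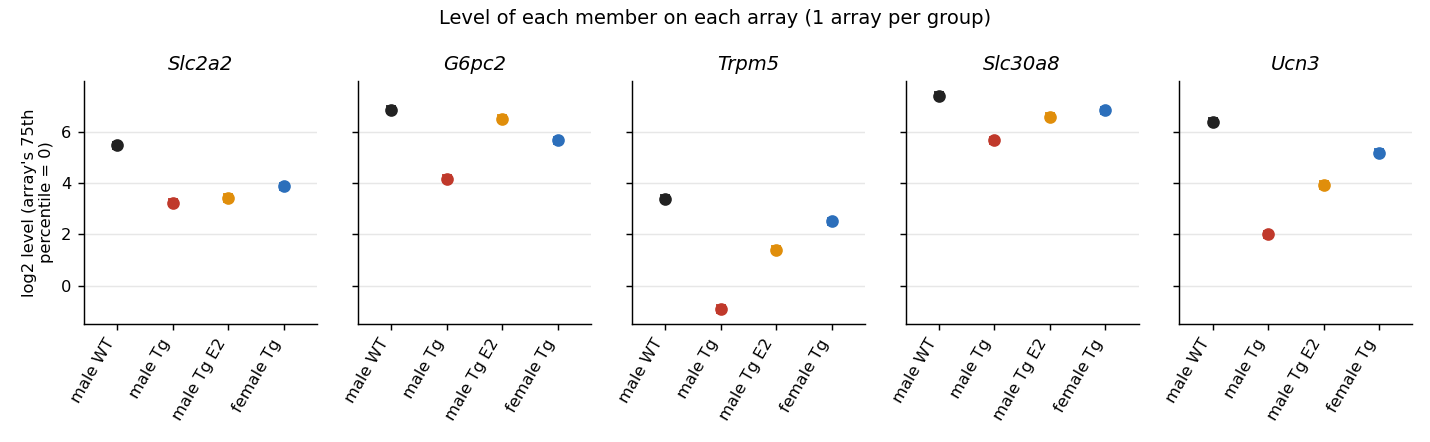
Level of each gene on each array (vertical axis: log2 intensity minus the array's 75th percentile), 1 array per group, with bars of the scanner error of 0.14 to 0.15 log2 that are mostly hidden by the points. In every panel the male WT point is the highest and the male Tg point the lowest; panels show different probes, so heights are not compared between them.

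Transgenic males were first set against wild-type males, to describe the diabetic transgenic islet. On the male Tg array all 5 genes were at least 2-fold lower and none higher, against 8.68% (1249) lower and 15.6% higher of the 14386 genes measured, that is, well above background on both arrays. Ucn3 was lower by 21.0-fold (-4.39 log2, interval -4.79 to -3.99) and Trpm5 by 19.5-fold (-4.29, -4.70 to -3.87), the 4th and 5th lowest values of all measured genes. G6pc2 was lower by 6.40-fold (-2.68, -3.08 to -2.28), Slc2a2 by 4.73-fold (-2.24, -2.64 to -1.84) and Slc30a8 by 3.35-fold (-1.74, -2.14 to -1.34), at ranks 64, 113 and 247 from the lowest. The median over the 5 genes was -2.68 log2, beside -0.21 over all measured genes. Relative to that median gene the values ran from -4.18 for Ucn3 to -1.54 for Slc30a8. These are bulk islets, in which fewer beta cells and less of an RNA in each beta cell cannot be told apart.

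Other cells moved with this comparison, as their summed levels above show. All 12 acinar markers were at least 2-fold higher on the male Tg array, with a median of 4.53 log2, and so were all 6 stellate and matrix markers (median 3.96), 5 of 5 measured red cell markers (2.26) and 6 of 7 lymphocyte markers (3.39). The same held for 5 of 8 alpha cell markers (1.22), 3 of 4 delta cell markers (1.35) and 4 of 6 macrophage markers (1.1). Ductal markers were split, with 2 of 5 measured at least 2-fold higher and 1 lower, as Krt19 was at 3.21 and Krt7 at -1.04. Sox9 and Muc1, well above background on male Tg but not on male WT, were higher by at least 2.39 and 3.65 log2. The part of these cells in the lower members was not tested. The 10 beta cell markers had a median of -0.95, with 4 at least 2-fold lower, so each of the 5 genes stood further below male WT than that median. Single markers overlapped with the 5 genes, as the marker Nkx6-1 was at -2.14, below Slc30a8 at -1.74. Ins1 and Ins2 were at 0.67 and 0.73, but their sign turned with the scaling, to as low as -0.25 and -0.28, so that no direction is given for insulin.

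**Figure D3:**
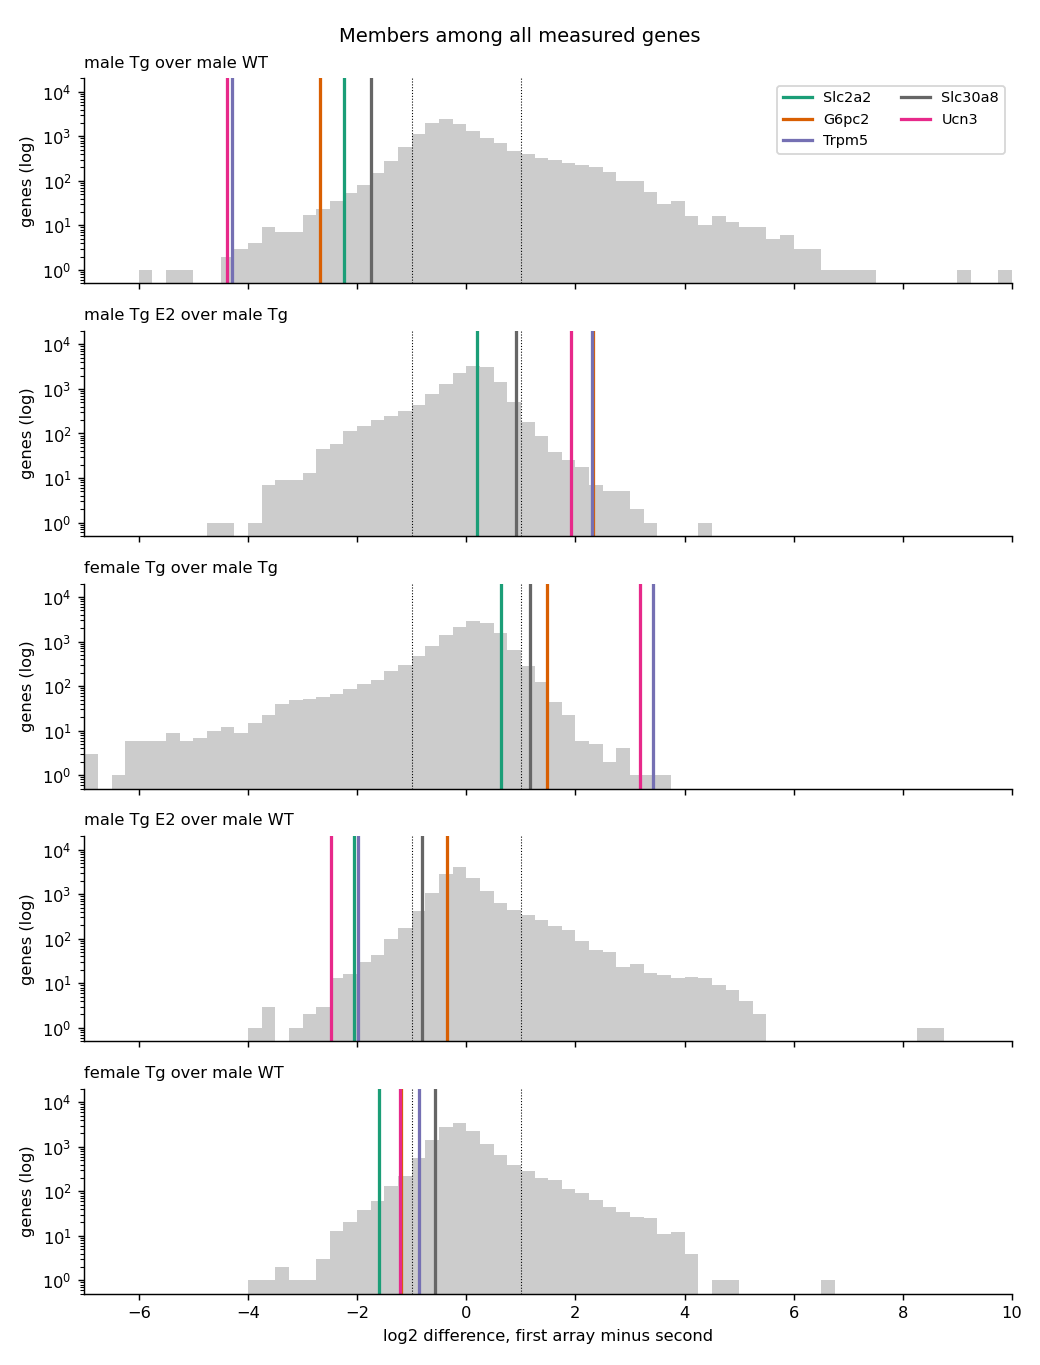
Distribution of log2 differences over all measured genes (grey, vertical log axis, number of genes per bin of 0.25) in 5 comparisons, with the 5 genes as coloured lines and dotted lines at a 2-fold difference; genes beyond the horizontal axis are counted in its end bins. In male Tg over male WT all 5 lines lie left of the lower dotted line, between -4.39 and -1.74.

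Implanted and untreated transgenic males were compared next, to describe islets under the hormone. The genes split here. G6pc2 was 5.03-fold higher on the male Tg E2 array (2.33 log2, 1.93 to 2.73), Trpm5 4.92-fold (2.30, 1.89 to 2.71) and Ucn3 3.78-fold (1.92, 1.52 to 2.32), which placed them 19th, 20th and 46th from the highest of 14618 measured genes. Slc30a8 was 1.90-fold higher (0.92, 0.52 to 1.32), short of 2-fold. It reached 1.02 when background was modelled before 75th percentile scaling, but 0.98 when it was modelled before quantile normalization. Slc2a2 differed by 0.19 log2, at rank 6320, near the middle of all genes.

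Thus 3 of 5 genes were at least 2-fold higher, where 2.54% (372) of all measured genes were, and none was lower, where 8.01% were. The median over the 5 genes was 1.92, and over all measured genes 0.12. Acinar markers had a median of -0.70 in this comparison, with 2 of 12 at least 2-fold lower, all 5 measured red cell markers were lower (median -3.32), and so were 6 of 7 lymphocyte markers (-1.84). What these cells contribute to the higher members was not tested. The beta cell markers had a median of 0.48, with 1 of 10 at least 2-fold higher.

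Set against male WT, the male Tg E2 array was still lower for 4 of the 5 genes by more than the measurement error. Ucn3 was lower by 5.55-fold (-2.47 log2, -2.87 to -2.07), Slc2a2 by 4.16-fold (-2.06, -2.45 to -1.66) and Trpm5 by 3.96-fold (-1.99, -2.39 to -1.59), at ranks 11, 36 and 40 from the lowest of 14587 measured genes. Slc30a8 was at -0.82 (-1.22 to -0.42), and at -1.05 to -1.07 after quantile normalization, which takes it past 2-fold. G6pc2 was at -0.35 with an interval that reaches 0.05. After quantile normalization it was further from 0, at -0.51, a scaling for which no interval was computed. So 3 of 5 genes were at least 2-fold lower, beside 2.64% (385) of all measured genes, and none was higher, beside 8.82%, with medians of -1.99 and -0.09. The acinar median in this comparison was 3.75, with 12 of 12 markers at least 2-fold higher. Also higher by 2-fold or more were 6 of 6 stellate and matrix (median 3.74), 5 of 8 alpha cell (1.51), 3 of 4 delta cell (1.18), 4 of 6 macrophage (1.30) and 4 of 7 lymphocyte markers (1.55), while 4 of 5 red cell markers were lower (-1.23). Their part in the lower members was not tested.

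The comparison of the transgenic sexes gave larger differences for Trpm5 and Ucn3. On the female Tg array Trpm5 was 3.42 log2 higher than on male Tg (3.01 to 3.83) and Ucn3 3.18 (2.78 to 3.58, 9.04-fold), the 2nd and 3rd highest of 14209 measured genes. G6pc2 was 2.80-fold higher (1.48, 1.08 to 1.88), Slc30a8 2.25-fold (1.17, 0.77 to 1.57) and Slc2a2 1.56-fold (0.64, 0.24 to 1.04). Hence 4 of 5 genes were at least 2-fold higher, beside 3.51% (499) of all measured genes, none was lower, beside 8.57%, and the medians were 1.48 and 0.10. This comparison and that of male Tg E2 share the male Tg array, so they are not independent of each other.

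Acinar markers were lower in the female Tg islets, by at least 2-fold against male Tg for 12 of 12, with a median of -4.16, and so were 5 of 5 measured red cell markers (-1.60) and 4 of 6 stellate and matrix markers (-1.19). Their part in the higher members was not tested. Against male WT, by contrast, none of the 12 was 2-fold different on the female Tg array (median 0.17), so that this pair of arrays differed little in these markers. All 5 genes were lower in female Tg than in male WT on this pair of arrays. The difference was -1.60 log2 for Slc2a2 (-2.0 to -1.20), -1.21 for Ucn3 (-1.61 to -0.81), -1.19 for G6pc2 (-1.59 to -0.79), -0.87 for Trpm5 (-1.27 to -0.47) and -0.57 for Slc30a8 (-0.97 to -0.17). At least 2-fold lower were 3 of 5, beside 3.47% (493) of 14218 measured genes, and none was higher, beside 7.65%, with medians of -1.19 and -0.12. Stellate and matrix markers (5 of 6 at least 2-fold higher, median 2.44) and lymphocyte markers (6 of 7, 3.48) were not matched on these arrays, nor were alpha cell (5 of 8, 1.44) and delta cell markers (3 of 4, 1.47), and their part was not tested.

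The pattern of each gene over the 4 arrays was compared by the Euclidean distance between log2 levels centred on each gene's own mean. Among the 5 genes, Trpm5 and Ucn3 were the closest pair (0.38 log2) and Slc2a2 and Trpm5 the farthest (2.08). Of 13044 other named genes well above background on all arrays, those nearest to Slc2a2 included Slc27a4 (0.18) and St8sia1 (0.23), with small differences between male Tg E2 and male Tg (0.22 and 0.18). Nearest to G6pc2 were Defb1 (0.34), Spc25 (0.42) and Nr5a1 (0.52). Amer2 and Cox6a2 were the 2 nearest genes to both Trpm5 (0.36 and 0.40) and Ucn3 (0.51 and 0.29). Nearest to Slc30a8 were Epha7 (0.06), Tor3a (0.07) and Dach1 (0.08). The other 2 probes of Epha7 were not well above background on any array. Tor3a and Dach1 each have another probe well above background on all arrays. In female Tg over male Tg these other probes gave 2.03 and 0.57, where the probes used gave 1.18 and 1.06. Between male arrays they gave values near those of the probes used. With 4 arrays a small distance says only that the values are alike.

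**Figure D4:**
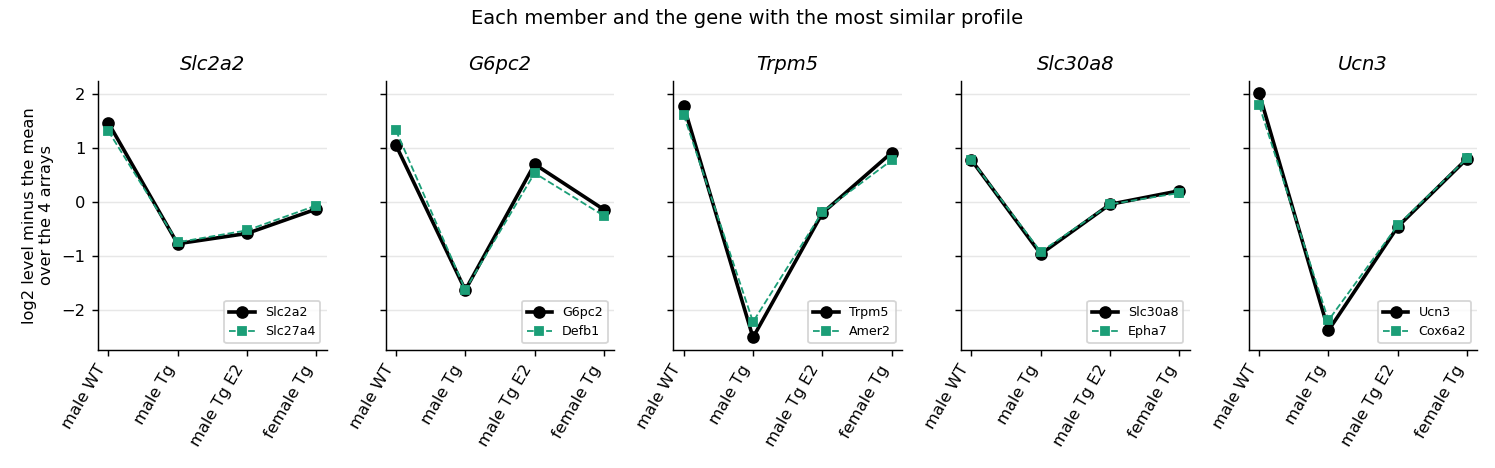
Log2 level minus the gene's mean over the 4 arrays (vertical axis) for each of the 5 genes (black) and the gene at the smallest distance (coloured dashed line); the lines join single arrays of separate groups. Slc2a2 stays low on the male Tg E2 array, whereas G6pc2 is nearly as high there as on male WT.

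Relatives of the 5 genes served to show whether whole families differed alike. Other genes of the Slc2a transporter family, not all of them glucose transporters, were mixed. In male Tg over male WT, Slc2a1, which encodes the widely expressed GLUT1, was at -0.28 log2 and Slc2a3, for the neuronal transporter GLUT3, at 1.51. The muscle and fat transporter gene Slc2a4 was at 2.20. Slc2a5 and Slc2a8 had the sign of Slc2a2 but smaller values, at -0.71 and -0.68, and Slc2a9 and Slc2a10 were at 0.67 and 0.96. On the same comparison G6pc, which encodes the liver and kidney form of glucose-6-phosphatase, was 5.02-fold higher (2.33), opposite to G6pc2, and was then lower by 1.52 log2 on male Tg E2 and by 2.51 on female Tg, each against male Tg. The ubiquitous form G6pc3 was at -0.29, 0.00 and 0.07. The level of G6pc itself was modest on each array, at -1.31, 1.02, -0.50 and -1.49. Summed acinar markers were also highest on the male Tg array, and the part of acinar cells in these values was not tested.

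The channel gene closest in kind to Trpm5 is Trpm4, for another calcium-activated cation channel, and it was at -0.65, -0.10 and 0.04 in male Tg over male WT, male Tg E2 over male Tg and female Tg over male Tg; the sign of the last turned with scaling. None of 5 measured TRPM genes other than Trpm5 was 2-fold different in the comparison with male WT (median -0.30). Of all measured genes 24.3% were, so for so few genes this count is not far from that share. For zinc, the genes Slc30a5 and Slc30a7, whose products load zinc into the early secretory pathway, lay between -0.19 and 0.16 in these 3 comparisons. Of 21 measured zinc transporter and metallothionein genes, 5 were at least 2-fold higher on male Tg than on male WT, where 15.6% of all genes were. By the same measure 1 was lower, where 8.68% of all genes were (median -0.07). Those higher included Slc30a10 (4.34), Slc39a5 (3.92), Slc39a4 (3.11) and Slc30a2 (2.43). The acinar markers named above were higher on the same array, and the part of acinar cells in these values was not tested. Ucn and Ucn2, the other urocortin genes, were not well above background on any array. Crhr2, which encodes the receptor that urocortin 3 acts on, was at 0.81, 0.74 and -0.04. None of 2 measured genes of that family was 2-fold different on male Tg against male WT (median 0.13). These are too few to set against the 24.3% of all genes.

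Other genes of glucose sensing and insulin secretion are read against the shares of all measured genes. These were, for at least 2-fold higher and lower, 15.6% and 8.68% in male Tg over male WT, 2.54% and 8.01% for the implant comparison, and 3.51% and 8.57% for the transgenic sexes. The list for glucose uptake and phosphorylation includes the other Slc2a genes named above. Of its 15 measured genes, on male Tg against male WT 5 were higher by 2-fold or more and 2 lower (median 0.44). Among them were Hkdc1 (2.26), a hexokinase domain gene, and Pfkfb3 (2.0), which regulates phosphofructokinase. The part of acinar cells, whose markers were also higher on male Tg than on male WT, was not tested. In male Tg E2 over male Tg, 5 of 17 were lower and none higher (median -0.20), and in female Tg over male Tg 3 of 15 were lower and none higher (-0.33).

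Of 18 measured genes for membrane excitability and incretin signalling, 8 were at least 2-fold lower on male Tg than on male WT and 2 higher (median -0.83). The incretin receptor genes led, with Gipr at -2.59 and Glp1r at -2.35 (5.10-fold lower), followed by the calcium channel gene Cacna1c (-1.47), while the cation channel gene Trpv2 was at 2.44. Kcnj11, the pore of the ATP-sensitive potassium channel, was at -1.18 (-1.59 to -0.78), and Abcc8, its sulfonylurea receptor subunit, at -0.60 (-1.0 to -0.20). On male Tg E2 over male Tg 2 of 17 were higher and 1 lower (median 0.63), and on female Tg over male Tg 5 of 18 were higher and 1 lower (0.62); the lower counts are near the shares of all genes. Glp1r was at 0.76 and 1.76, and Kcnj11 at 0.82 and 1.14, in these comparisons. Against male WT, the female Tg array gave -0.04 for Kcnj11 and -0.01 for Abcc8, values near 0 whose sign turned with scaling, and -0.59 for Glp1r.

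Many of the maturity genes other than the 5 were lower on male Tg as well. Of 21 measured, 11 were at least 2-fold lower than on male WT (8.68% of all genes) and none higher (15.6%), with a median of -1.0, led by Cox6a2 (-3.98), a cytochrome oxidase subunit gene, Sytl4 (-3.57), whose product sits on insulin granules, Nkx6-1 (-2.14), a factor that maintains beta cells, and Gjd2 (-1.96), which encodes the gap junction protein that couples beta cells. Ucn3 and Trpm5 lay below all of these (but Trpm5 was at -3.87 or -3.77 after normexp, a model of the background, and Cox6a2 between -4.03 and -3.87 over all scalings), and G6pc2 and Slc2a2 below all but Cox6a2 and Sytl4. The order of Slc2a2 and Nkx6-1 was within measurement error, with intervals of -2.64 to -1.84 and -2.54 to -1.74. Pdx1, a factor that acts on the insulin and Slc2a2 genes, was at -1.51, and Mafa, the mature beta cell MAF factor, at -0.99. On male Tg E2 over male Tg 5 of 21 maturity genes were at least 2-fold higher (median 0.63; 2.54% of all genes), and on female Tg over male Tg 8 of 21 were (0.62; 3.51%), with none lower in either. Nkx6-1 was at 1.11 and 1.44 there, Pdx1 at 0.63 and 0.58, and Mafa at 0.27 and 0.72. The 21 maturity genes include nearly all of the beta cell markers, Ins1 and Ins2 among them. Their counts and medians therefore partly repeat those of the beta cell markers.

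Genes of immature beta cells ran the other way on male Tg, where 7 of 10 measured were at least 2-fold higher than on male WT (15.6% of all genes) and none lower (8.68%), with a median of 1.58. They were led by the gut peptide gene Cck (4.09), Dlk1 (3.02), the lactate dehydrogenase gene Ldha (2.30) and the neuropeptide gene Npy (2.20). Some of these are made by other islet, stromal or blood cells too, and stellate and matrix markers were higher on the same array, but the part of such cells was not tested. In male Tg E2 over male Tg 2 of 11 were lower and none higher (median -0.01; 8.01% of all genes lower), and in female Tg over male Tg 4 of 10 were lower and none higher (-0.70; 8.57%).

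**Figure D5:**
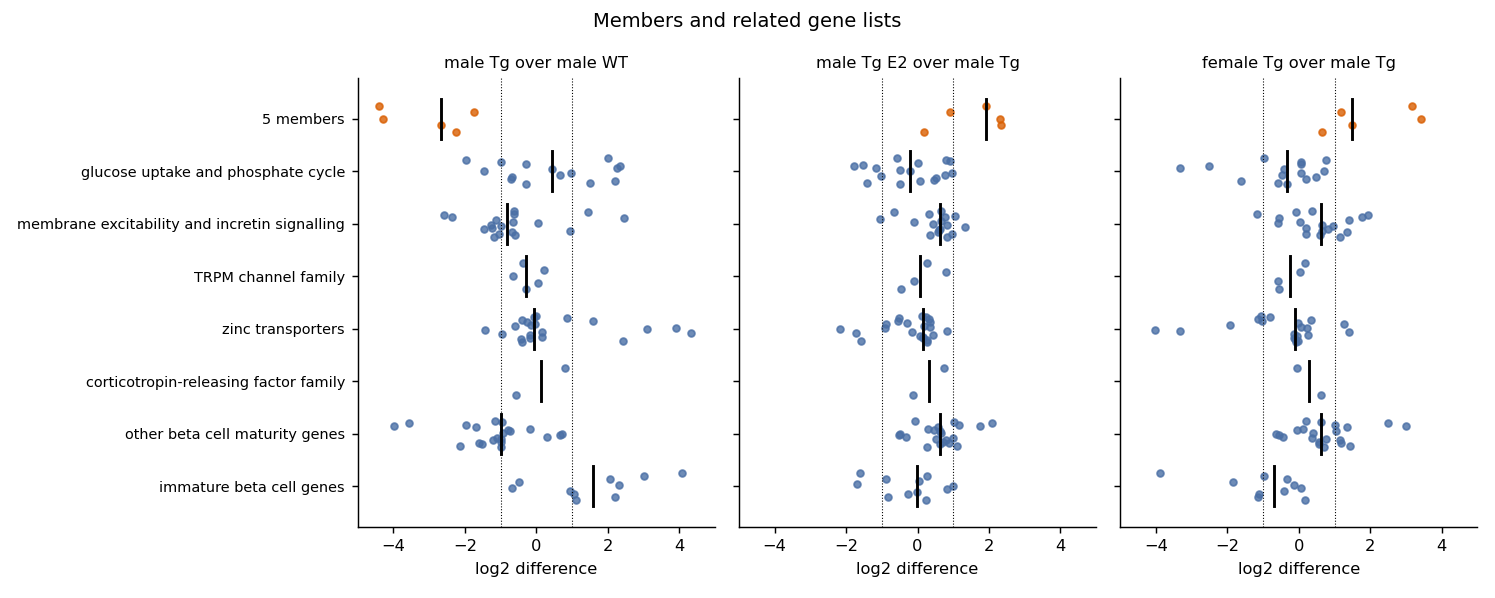
Log2 difference of each measured gene (points) and the median (black bar) for the 5 genes and 7 lists of related genes in 3 comparisons, with dotted lines at a 2-fold difference; vertical scatter within a row has no meaning. In male Tg over male WT the 5 genes have a median of -2.68 and the other maturity genes one of -1.0, with single genes of other lists, such as Cox6a2 (-3.98), among the values of the 5.

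Promoters of 4 of the 5 genes were found in the RefSeq table of build GRCm38.p6 and were searched on both strands of the 250 bases before the gene's start for short motifs of beta cell factors. The letters searched were TGCTGAC (MAF factors), TAATTA (homeodomain factors), CAGATG (an E box), GTTAAT (HNF1) and TGTTTAC (FoxA). They occur in 3.81%, 4.84%, 14.4%, 6.43% and 3.17% of 32851 promoters of that length. TAATTA and GTTAAT can overlap. The only match was CAGATG in the Ucn3 promoter, at bases 87 to 82 before the start. The promoters of Ucn3 and Trpm5, which had the closest pattern of levels among the 5 genes, are printed 5′ to 3′ on the gene's strand (the minus strand for both), with the match in capitals. They lie at chr13:3945350-3945599 and chr7:143094643-143094892 of GRCm38.p6.
Ucn3: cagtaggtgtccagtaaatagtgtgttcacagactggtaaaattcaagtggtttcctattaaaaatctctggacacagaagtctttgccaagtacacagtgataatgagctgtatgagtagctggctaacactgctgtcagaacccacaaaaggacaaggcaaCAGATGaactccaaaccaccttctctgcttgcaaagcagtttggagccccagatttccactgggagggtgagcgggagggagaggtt
Trpm5: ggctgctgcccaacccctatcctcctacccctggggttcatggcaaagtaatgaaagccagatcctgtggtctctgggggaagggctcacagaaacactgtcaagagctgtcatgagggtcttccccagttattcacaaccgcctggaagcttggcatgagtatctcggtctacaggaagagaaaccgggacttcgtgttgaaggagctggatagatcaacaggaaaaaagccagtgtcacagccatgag
Trpm5 holds none of the 5 motifs in this window, and neither does Slc2a2 or G6pc2, for which the table gives 2 starts and the first was searched. A match is a run of letters and not a bound site.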

How the data were processed

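Total RNA of hand-picked islets was hybridised to one-colour Agilent mouse arrays, all on 1 slide. The deposited scanner files hold linear Cy3 intensity that, per the file headers, Feature Extraction 10.7.1.1 produced; version 9.5.1.1 is the one in the submitters' processing notes. The authors' series matrix holds a linear, between-array normalized intensity of the same arrays and served as an alternative.

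The processed, background-corrected intensity of unflagged spots was converted to log2, which is not the deposited scale, averaged per probe, and scaled by subtracting the 75th percentile of non-control probes. Probes were named through a RefSeq table (GRCm38.p6): 27235 by accession, 4146 by symbol or synonym, and 24300 kept the file's name. A gene is represented by its brightest probe over the 4 arrays. A gene is measured in a comparison when well above background on both arrays. The error of a level is the scanner software's, whose multiplicative term is 10%. The number of arrays limits the precision.

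The 5 genes, the lists, the motifs and the threshold of 2-fold were chosen with earlier results of these data known. Genes named are the 5, the 3 nearest in pattern to each, the 4 or fewer per list that differed most, by 2-fold or more, in male Tg over male WT, and a set of sensing genes, beta cell factors and family relatives named whatever their value; a few are not reported here. Slc2a5, Slc2a8, Slc2a9 and Slc2a10 were named, and marker sums without hormone genes computed, after values were seen. Computations used Python 3.11.15, numpy 2.4.6, pandas 2.3.3, R 4.3.3 and limma 3.58.1 (normexp with offset 50), and were tested on simulated data. Alternatives were quantile normalization, normexp with either scaling, median centring, the series matrix, the mean of a gene's probes, and other background filters.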

Additional observations from a re-analysis of the deposited data

How the results depend on the processing

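No paired analysis was possible because each group has 1 array and the labels carry no replicate numbers, and no array could be left out for the same reason. Under the alternatives, the median of the 5 genes kept its direction and its side of 2-fold in all 5 comparisons. Each member has 1 probe, so the mean over a gene's probes could not move it and is left out here. Of 125 other recomputed values of single members, 110 moved by less than 1 scanner error, 15 by more, and 0 changed sign. Those 15 were values of Slc30a8 after quantile normalization (alone, after normexp, or in the authors' series matrix) and of Trpm5 after normexp. Trpm5 ranged from -4.25 to -3.77 in male Tg over male WT, from 2.92 to 3.55 in female Tg over male Tg, and from 1.88 to 2.35 in male Tg E2 over male Tg. Slc30a8 alone crossed 2-fold, at -1.05 to -1.07 in male Tg E2 over male WT and at 1.02 in male Tg E2 over male Tg.

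The counts of all genes at least 2-fold different depended more on the processing. After normexp with 75th percentile scaling they were 946 (male Tg E2 over male Tg), 1082 (female Tg over male Tg), 1002 (male Tg E2 over male WT) and 1008 (female Tg over male WT). After normexp with quantile normalization they were 2245 in male Tg over male WT and 950, 1138, 855 and 814 in that order. With no background filter, which admits more genes, they were 6190, 3375, 3781, 3655 and 3544. The reported counts were 3499, 1543, 1717, 1672 and 1580. The cause of the lower counts after normexp was not tested.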

Other observations

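The genes next to the 5 on the chromosome were looked at through the order of protein-coding genes in the RefSeq table, a step chosen after their values were seen for Spc25. Spc25, which encodes a kinetochore protein, is both the next gene to G6pc2 and the second nearest to it in pattern. Its levels were 7.34, 4.90, 6.67 and 5.98 log2 on the arrays of male WT, of male Tg, of male Tg E2 and of female Tg. It stood at -2.44 in male Tg over male WT, at 1.08 in female Tg over male Tg and at 1.77 in male Tg E2 over male Tg. The table lists no overlap between the genes. Partners of Spc25 in its complex did not show these values: Ndc80 and Nuf2 were not well above background on any array, and Spc24 was at 0.62, -0.51 and -0.63. Abcb11, on the other side of G6pc2, was at -0.78, 0.00 and 0.94.

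The neighbours of the other 4 genes gave mixed values. In male Tg over male WT, Tnik and Eif5a2 beside Slc2a2 were at -0.64 and -0.73, Aard and Med30 beside Slc30a8 at -0.37 and -0.62, and Tssc4 beside Trpm5 at -1.02. Aard, however, was at 0.70 in female Tg over male Tg and at 1.02 in male Tg E2 over male Tg, where Slc30a8 was at 1.17 and 0.92. Kcnq1, a potassium channel gene on the other side of Trpm5, was at 2.96, -2.39 and -0.53 in the 3 comparisons above, opposite in sign to Trpm5 in each. Akr1c14 beside Ucn3 was at -1.33, -0.35 and 0.40, and Tubal3 was not well above background on any array.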
